A study of Rattus norvegicus with 8 samples.

Results

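Genes of the cell cycle were followed in rat dorsal root ganglia after a nerve injury. A list of 41 genes was matched to the array by gene symbol, without use of any measured value, and 36 of them were found, on 53 probes and 65 spots, among 10746 named genes and 22379 tested probes. Cdk1 stands in the deposited table under its older symbol Cdc2. Mcm3, Rrm1, Bub1, Kif11 and Tpx2 were not matched and are not analysed here. The found genes were grouped by the phase they serve, with 6 of G1, 9 of S phase (DNA synthesis) and 21 of G2 and mitosis.

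The ligation group held 4 samples of ipsilateral ganglia from Sprague Dawley rats taken on day 7 after spinal nerve ligation, a nerve tie near the ganglion that serves as a model of lasting nerve pain (Chung model). The control group held 4 samples of the same strain and day, which the sample titles call contralateral and the sample descriptions call sham-operated, so body side and operation cannot be told apart. The labels describe the samples as biological replicates, each a pool of 2 animals, and the labels do not state age, sex or spinal level. Each sample was labelled with Cy5 and set against 1 pool of control ganglia labelled with Cy3, on 8 arrays with no dye swap. Values below are log2 ratios of the sample over that pool, and a log2 fold change is the ligation mean minus the control mean.

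Cells that divide pass from G1, in which D and E cyclins and their kinases decide on entry, through S phase, in which the genome is copied, to G2 and mitosis, in which the chromosomes are condensed, aligned and pulled apart. Genes of S phase are held in check by RB proteins on E2F sites, and many genes of mitosis are read through CCAAT boxes beside a sequence called CHR, so each class is switched on as a block in cycling cells. Sensory neurons of adult ganglia do not divide, while satellite glia, Schwann cells, macrophages, fibroblasts and vessel cells around them can. In RNA of whole ganglia, more cells that express a gene and more RNA per cell cannot be told apart.

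The ligation arrays were slightly brighter than the control arrays and had a wider spread of ratios. The median sample intensity, on the relative scale of the deposited table, was 0.21 to 0.22 on ligation arrays and 0.17 to 0.20 on control arrays. Log2 ratios had a standard deviation over spots of 0.589 to 0.632 on ligation arrays and 0.184 to 0.226 on control arrays. Intensities carry 2 decimals, so ratios of dim probes move in steps, and a ratio of exactly 1 was listed for 16.95% to 19.1% of spots on ligation arrays and 35.9% to 38.7% on control arrays. For each probe the range that this rounding leaves for its log2 fold change was computed, and it is given below for probes of the list that passed the test although it includes 0. Of all probes 58.6% passed the test between the groups, so counts of called genes are read against the shares over all probes or genes.

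Cell cycle genes were mostly higher after ligation, and of the 3 classes the genes of mitosis had the highest median fold change. By the brightest probe of each gene, 32 of the 36 genes rose, 3 fell and 1 did not pass the test (limma, Benjamini-Hochberg adjusted p under 0.05). Intensities of the ligation arrays entered that choice of probe, so counts by gene can lean toward rises, here and over all genes. Counts by single probes do not rest on it. Over all genes tested 66.1% passed, 30.2% as higher and 35.9% as lower. A rise of at least 2-fold was found for 19 of the 36 genes, against 6.51% of all genes. The median log2 fold change was 1.06 over the cell cycle genes and -0.05 over all genes. By single probes, 43 of 53 rose, 3 fell and 7 did not pass, against 26.4% of all probes that rose and 32.2% that fell. A rise of at least 2-fold was found for 24 of the 53 probes, against 4.67% of all probes. With only probes above the median intensity, which tests fewer genes, 19 cell cycle genes rose by 21 probes and 2 fell by 2 probes. That filter used intensities of the ligation arrays too, so probes that rise pass it more readily. Of the 53 probes it kept 23 whose call did not change and the brighter probe of Ccna2. Ccna2 fell there but had not passed in the main fit. Of the 11182 probes tested there 3787 rose and 4792 fell. Under quantile normalization 30 cell cycle genes rose by 42 probes and 1 fell, while 3044 of all 22379 probes rose, against 5897 without it. Under scaling of the arrays to 1 spread 29 rose by 40 probes and 1 fell, while 2285 of all probes rose. In both settings the gene that fell was Ccna2 by its brighter probe, and the 3 that fell in the main fit lost their calls. With the sample channel alone 30 rose by 39 probes and 0 fell, while 4687 of all probes rose. The range left by rounding lay wholly above 0 for 29 of the 32 genes and 37 of the 43 probes that rose.

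The 4 ligation arrays lay above the 4 control arrays without overlap for 32 of the 36 genes, and below them for Cdc25b and Kif20a. Over all genes the groups were apart for 62.3%, with ligation above for 28.7%. The median log2 ratio of the 36 genes was 0.84, 0.91, 1.15 and 0.93 on ligation arrays 1 to 4, against -0.03, -0.01, -0.09 and 0 on control arrays 1 to 4. Ligation array 3 gave the highest of the 4 ligation values for 28 of the 43 probes that rose (65.1%), against 37.6% of the 5871 probes of the whole array that rose and had all values. All 4 ligation medians thus lay far above all 4 control medians, with array 3 the highest, and no call of the 53 probes changed without array 3.

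**Figure D1:**
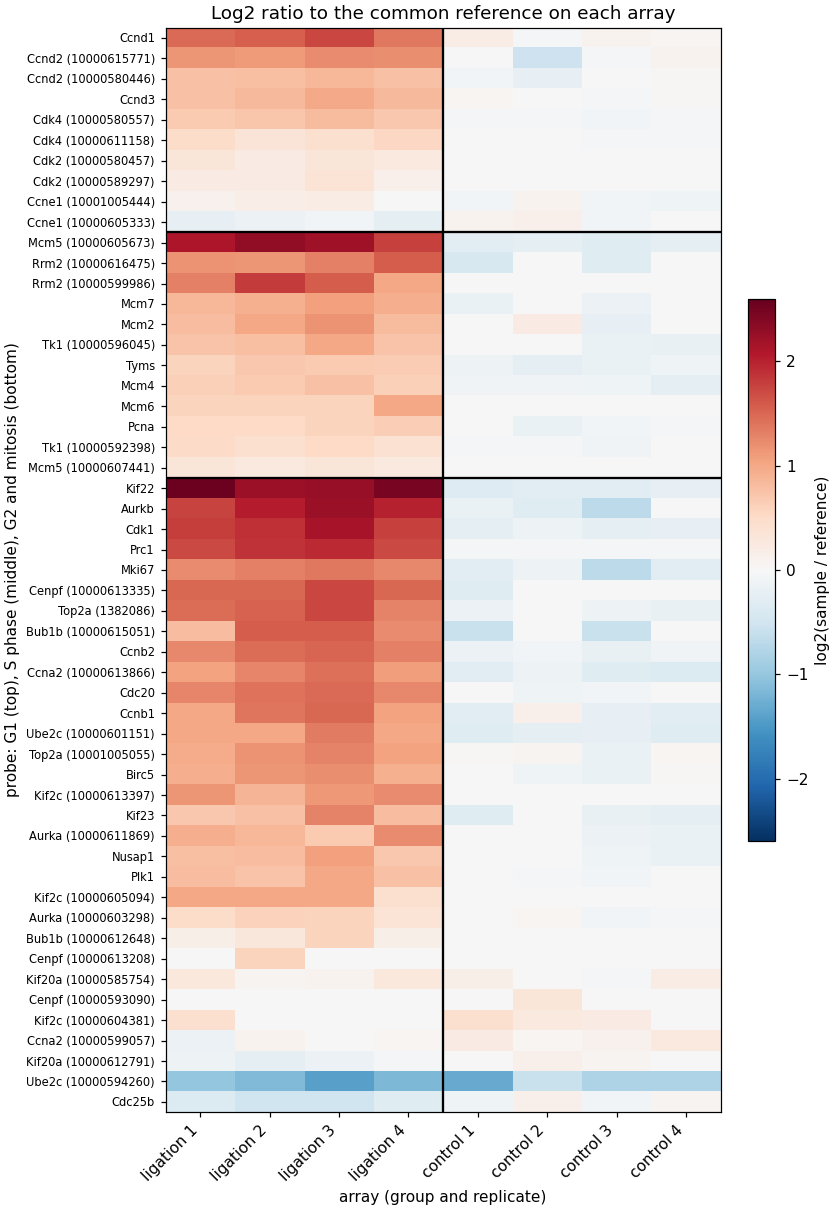
Log2 ratio of sample over reference for each of the 53 probes of cell cycle genes (rows, by class and then by fold change) on ligation arrays 1 to 4 and control arrays 1 to 4 (columns), red above the reference and blue below it. The ligation columns are red in most rows, the control columns are pale, and probe 10000594260 of Ube2c near the bottom is blue in both groups.

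In G1 the D cyclins led. Of 6 genes 5 rose and 1 fell, with a median log2 fold change of 0.65, where 30.2% of all genes rose and 35.9% fell. Ccnd1, cyclin D1, which carries growth signals to the G1 kinases, had log2 ratios of 1.47, 1.56, 1.74 and 1.38 on ligation arrays 1 to 4, against 0.19, -0.03, 0.10 and 0.05 on control arrays 1 to 4. Every ligation array lay far above every control array, and the log2 fold change was 1.46 ± 0.085 (SE, n = 4 each; 2.74-fold higher, adjusted p = 6.95e-06). Ccnd2, cyclin D2, was read by both of its probes, with 1.15, 1.1, 1.23 and 1.21 on ligation arrays and 0.01, -0.53, -0.04 and 0.09 on control arrays by the brighter one. Its log2 fold change was 1.29 ± 0.13 (2.44-fold higher, adjusted p = 0.000112), and control array 2 lay well under the other controls. This probe had the largest standard error of G1, and its call was lost under scaling of the arrays to 1 spread (0.76, adjusted p = 0.122). The dimmer probe of Ccnd2 gave 0.77, 0.78, 0.87 and 0.76 on ligation arrays and -0.07, -0.22, 0 and 0.03 on control arrays, a log2 fold change of 0.86 ± 0.06. Both probes put the groups apart, and control array 2 was again the lowest.

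Ccnd3, cyclin D3, had log2 ratios of 0.77, 0.85, 0.99 and 0.84 on ligation arrays and 0.06, -0.01, -0.03 and 0.04 on control arrays. The groups did not overlap, and its log2 fold change was 0.85 ± 0.049 (1.8-fold higher, adjusted p = 6.65e-06). Cdk4, the kinase that the D cyclins switch on, had 0.68, 0.72, 0.82 and 0.71 on ligation arrays and -0.03, -0.05, -0.07 and -0.03 on control arrays by the dimmer of its probes. The brighter probe gave 0.48, 0.33, 0.41 and 0.53 on ligation arrays and 0, -0.01, -0.05 and -0.03 on control arrays. The groups lay apart by both, with a log2 fold change of 0.77 ± 0.032 by the dimmer probe and 0.46 ± 0.043 by the brighter (adjusted p = 1.78e-06 and 7.19e-05).

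The genes that act at the end of G1 gave small log2 fold changes at low sample intensities, 0.04 to 0.15 for Cdk2 and 0.11 to 0.21 for Ccne1. For Cdk2 such values do not show a lack of change. Cdk2, the kinase of cyclin E, was 1.17-fold higher by its brighter probe and 1.22-fold higher by its dimmer one, all control ratios being 0. Rounding alone left a range of -0.05 to 0.51 and of -0.31 to 0.88 for these log2 fold changes, so neither direction is settled, and the dimmer probe lost its call with the sample channel alone (0.11, adjusted p = 0.426). Ccne1, cyclin E1, which opens S phase, had -0.22, -0.15, -0.07 and -0.23 on ligation arrays and 0.09, 0.14, -0.08 and 0 on control arrays by its brighter probe. That probe had a log2 fold change of -0.21 ± 0.059 and fell (adjusted p = 0.0194), with overlapping groups. The call was lost without ligation array 1, without ligation array 4 or without control array 1. It was also lost under quantile normalization (adjusted p = 0.387), under scaling (adjusted p = 0.384), with the sample channel alone (adjusted p = 0.108) and with centring on bright probes (adjusted p = 0.0597). The other Ccne1 probe gave 0.12, 0.18, 0.20 and -0.02 on ligation arrays and -0.08, 0.09, -0.08 and -0.11 on control arrays, and its log2 fold change of 0.17 ± 0.066 did not pass (adjusted p = 0.0645). It passed as higher with centring (0.21, adjusted p = 0.0285), without control array 2 (adjusted p = 0.0216) and without ligation array 4 (adjusted p = 0.0177). The probes of Ccne1 thus pointed opposite ways.

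All 9 genes of S phase passed as higher, against 30.2% of all genes, with log2 fold changes of 0.50 to 2.37 and a median of 0.82. For Mcm6 rounding leaves the direction unsettled. Of the 9, 3 rose at least 2-fold, against 6.51% of all genes, namely Mcm5, Rrm2 and Mcm7. The promoters of Mcm5 and Tyms are shown because these genes had the smallest adjusted p of the class among those with a listed promoter. They are windows of 300 bases over the gene start, written 5′ to 3′ along the gene, from RefSeq in the GRCr8 assembly. Capitals mark matches, on either strand, to the CCAAT box, to TTTGAA (the CHR element) and to TTCGCGC or TTGGCGC (forms of the E2F site).
Mcm5 promoter, chr19:13488563-13488862, plus strand: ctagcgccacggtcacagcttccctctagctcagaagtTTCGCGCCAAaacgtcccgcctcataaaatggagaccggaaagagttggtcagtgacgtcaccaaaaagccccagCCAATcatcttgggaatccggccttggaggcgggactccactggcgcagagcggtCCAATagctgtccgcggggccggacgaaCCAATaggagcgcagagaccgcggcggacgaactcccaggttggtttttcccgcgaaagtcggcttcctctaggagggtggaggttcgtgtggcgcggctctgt
Tyms promoter, chr9:120776034-120776333, minus strand: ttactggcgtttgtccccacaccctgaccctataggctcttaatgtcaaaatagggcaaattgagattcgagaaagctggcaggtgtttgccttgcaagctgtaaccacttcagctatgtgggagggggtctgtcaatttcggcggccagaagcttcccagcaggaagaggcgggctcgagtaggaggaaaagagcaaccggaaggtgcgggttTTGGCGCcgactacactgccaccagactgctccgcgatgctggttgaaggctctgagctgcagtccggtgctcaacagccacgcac
In Mcm5 the TTCGCGC match and the reversed TTGGCGC match share bases, 212 and 209 bases before the start, and the CCAAT boxes begin 137, 82 and 54 bases before it. The Tyms window holds TTGGCGC alone, 36 bases before the start.

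The largest rise of the class was that of Mcm5, a subunit of the MCM helicase that unwinds DNA at replication forks. Its brighter probe had log2 ratios of 2.11, 2.31, 2.20 and 1.78 on ligation arrays and -0.29, -0.26, -0.31 and -0.23 on control arrays. Every ligation array lay at least 2 log2 units above every control array, with ligation array 4 the lowest of its group. The log2 fold change was 2.37 ± 0.11 (5.18-fold higher, adjusted p = 2.41e-06). The other Mcm5 probe, a dim one, gave 0.32, 0.26, 0.32 and 0.26 on ligation arrays and 0, 0, 0 and 0 on control arrays, a log2 fold change of 0.29 ± 0.022. Rounding left -0.30 to 0.89 for it, and it turned to -0.039 when the sample channel alone was used, so the size of the Mcm5 rise rests on 1 probe.

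Tyms, thymidylate synthase, which makes the thymidine nucleotide, had 0.57, 0.70, 0.69 and 0.67 on ligation arrays and -0.13, -0.23, -0.18 and -0.12 on control arrays. It was 1.77-fold higher (0.82 ± 0.04 on the log2 scale, adjusted p = 3.2e-06), with groups well apart. Mcm4, another helicase subunit, had 0.61, 0.68, 0.76 and 0.61 on ligation arrays and -0.10, -0.10, -0.11 and -0.23 on control arrays. The difference was 0.80 ± 0.047 (1.75-fold, adjusted p = 6.75e-06), and only control array 4 departed from its group. Mcm7, of the same ring, had 0.86, 0.93, 1.06 and 0.94 on ligation arrays and -0.17, 0, -0.15 and 0 on control arrays, a log2 fold change of 1.03 ± 0.06 (2.04-fold, adjusted p = 6.75e-06). The groups of Mcm7 lay far apart.

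Tk1 and Rrm2, which also supply nucleotides, were read by a pair of probes each. Tk1, thymidine kinase, had 0.49, 0.42, 0.51 and 0.40 on ligation arrays and -0.05, -0.05, -0.09 and 0 on control arrays by its brighter probe, a log2 fold change of 0.50 ± 0.035. Its dimmer probe gave 0.91 ± 0.077, and neither probe had overlapping groups. Rrm2, the small subunit of ribonucleotide reductase, had 1.32, 1.81, 1.58 and 1.00 on ligation arrays and 0, 0, 0 and 0 on control arrays by the probe with the largest standard error of the class. Ligation array 4 was the lowest there and the highest by the other Rrm2 probe. The log2 fold changes of the Rrm2 probes were 1.43 ± 0.16 and 1.49 ± 0.14, at sample intensities of at most 0.11.

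The remaining S phase genes had fold changes under 2. Mcm2 was 1.93-fold higher (0.95 ± 0.11 on the log2 scale), although the call was lost under quantile normalization (0.58, adjusted p = 0.114) and under scaling of the arrays to 1 spread (0.41, adjusted p = 0.225). Mcm6 was 1.61-fold higher at intensities of 0.02 to 0.03 on ligation arrays and 0.01 to 0.02 on control arrays, where rounding left -1.16 to 2.66. Its direction is therefore not settled, and its call was lost with the sample channel alone (0.65, adjusted p = 0.086). Pcna, the sliding clamp of DNA polymerase, was 1.55-fold higher (0.63 ± 0.045 on the log2 scale, adjusted p = 1.9e-05). Bright spots of each ligation array piled up at 1 value, which was 17.77 to 21.23 by array, although the highest intensities were 21.56 to 26.48. The intensity of Pcna, 14.8 to 19.8 on ligation arrays, came near these values, and whether its fold is understated was not tested.

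**Figure D2:**
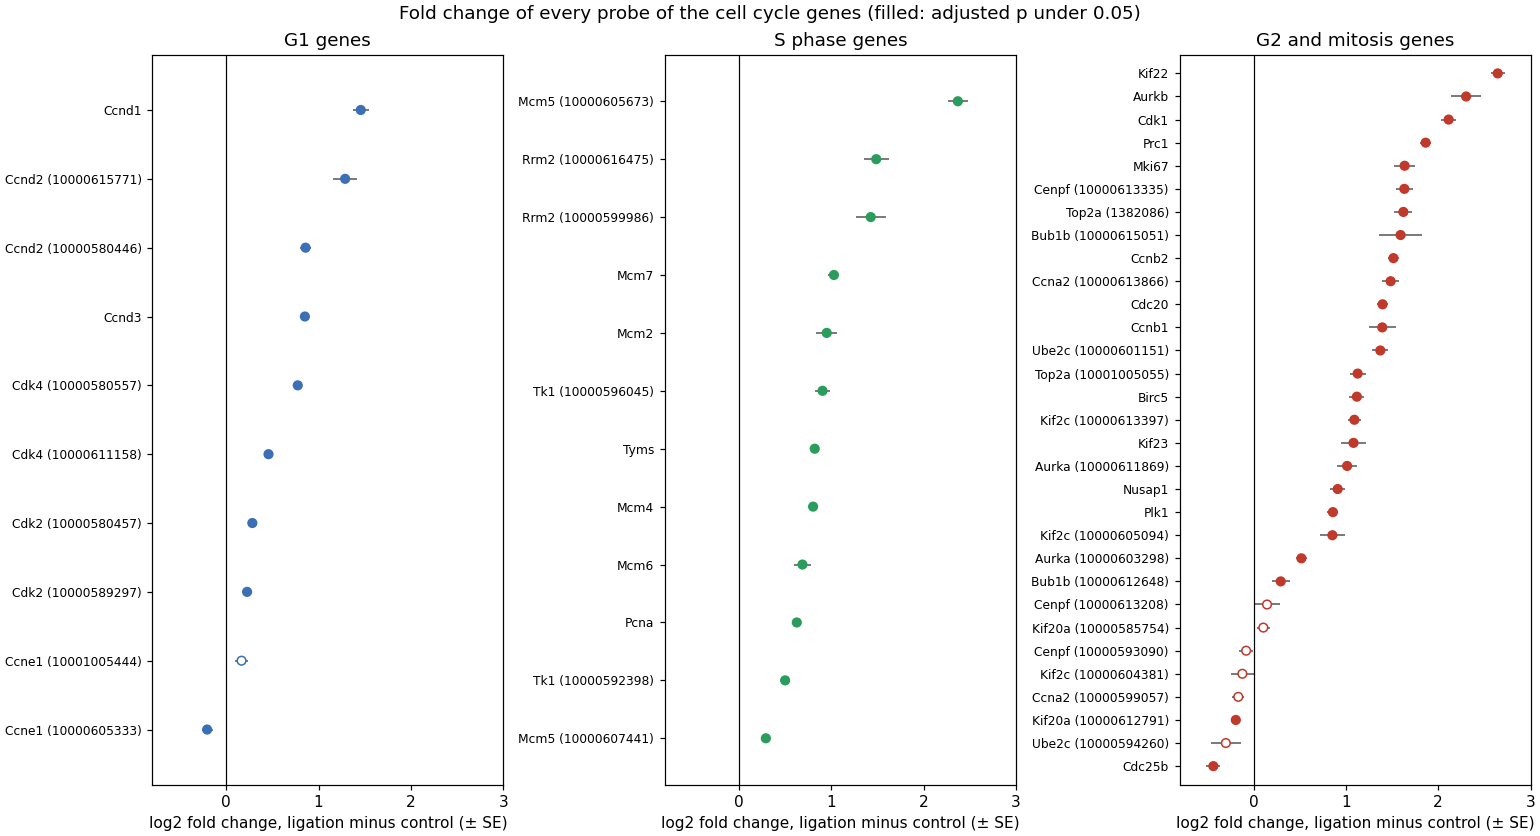
Log2 fold change of ligation minus control for every probe of the cell cycle genes, with bars of 1 SE (n = 4 arrays each), in panels for G1, S phase and G2 with mitosis. Filled points passed the test. All 12 probes of S phase lie above 0, and Kif22, Aurkb and Cdk1 lie furthest to the right among the probes of mitosis.

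Of the 21 genes of G2 and mitosis 18 rose, 2 fell and 1 did not pass, where 30.2% of all genes rose and 35.9% fell. The median log2 fold change was 1.37, and 14 of the 21 rose at least 2-fold, against 6.51% of all genes. By single probes 23 of 31 rose, 2 fell and 6 did not pass, with a median of 1.09, where 26.4% of all probes rose. The promoters of the 4 genes with the smallest adjusted p follow, from the same RefSeq assembly and with the same matches in capitals.
Kif22 promoter, chr1:191080829-191081128, minus strand: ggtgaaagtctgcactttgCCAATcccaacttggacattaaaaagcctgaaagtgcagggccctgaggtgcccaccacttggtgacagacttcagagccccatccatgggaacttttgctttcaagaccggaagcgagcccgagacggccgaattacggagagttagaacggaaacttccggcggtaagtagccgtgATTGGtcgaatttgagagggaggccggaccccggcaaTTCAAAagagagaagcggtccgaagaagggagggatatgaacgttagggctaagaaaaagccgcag
Prc1 promoter, chr1:143659231-143659530, plus strand: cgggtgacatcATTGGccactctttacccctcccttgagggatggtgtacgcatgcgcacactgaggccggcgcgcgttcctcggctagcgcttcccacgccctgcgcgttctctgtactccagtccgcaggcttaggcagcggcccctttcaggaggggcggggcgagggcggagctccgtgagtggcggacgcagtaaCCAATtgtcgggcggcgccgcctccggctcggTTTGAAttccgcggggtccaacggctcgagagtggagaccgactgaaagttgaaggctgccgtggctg
Cdk1 promoter, chr20:19265043-19265342, plus strand: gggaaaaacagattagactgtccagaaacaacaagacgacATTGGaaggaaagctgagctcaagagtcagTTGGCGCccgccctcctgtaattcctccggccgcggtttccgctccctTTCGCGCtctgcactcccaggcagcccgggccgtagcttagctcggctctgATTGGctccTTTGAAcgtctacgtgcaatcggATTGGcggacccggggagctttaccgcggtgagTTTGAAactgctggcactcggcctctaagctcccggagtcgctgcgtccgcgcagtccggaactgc
Cdc20 promoter, chr5:137255750-137256049, minus strand: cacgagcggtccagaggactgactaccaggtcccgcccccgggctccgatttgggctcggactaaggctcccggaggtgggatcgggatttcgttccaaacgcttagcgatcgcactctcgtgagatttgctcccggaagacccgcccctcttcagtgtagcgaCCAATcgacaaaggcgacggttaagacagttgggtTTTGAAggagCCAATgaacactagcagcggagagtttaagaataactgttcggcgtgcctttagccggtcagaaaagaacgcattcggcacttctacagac
Each of the 4 holds both a CCAAT box and TTTGAA. The match to TTTGAA nearest to the start begins 16, 18 and 16 bases before the start in Kif22, Prc1 and Cdk1, and 51 bases before it in Cdc20. The CCAAT box nearest to the start begins 53 bases before it in Kif22, 50 in Prc1, 49 in Cdk1 and 41 in Cdc20. Cdk1 alone of the 4 also holds TTCGCGC and TTGGCGC.

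Kif22, a kinesin that pushes chromosome arms toward the spindle equator, rose the most of all the cell cycle genes. It had log2 ratios of 2.54, 2.23, 2.26 and 2.46 on ligation arrays 1 to 4, against -0.33, -0.27, -0.28 and -0.22 on control arrays 1 to 4. Ligation arrays 1 and 4 were the higher ones, unlike most genes of the list. The log2 fold change was 2.64 ± 0.074 (6.25-fold higher, adjusted p = 4.18e-07). Prc1, which bundles microtubules of the midzone for the final cut between daughter cells, had 1.72, 1.88, 1.95 and 1.71 on ligation arrays and -0.06, -0.06, -0.06 and -0.03 on control arrays. It was 3.64-fold higher (1.86 ± 0.058 on the log2 scale, adjusted p = 5.74e-07), with ligation arrays 2 and 3 the highest and hardly any spread among the controls.

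Cdk1, the kinase that drives entry into mitosis, had 1.80, 1.90, 2.15 and 1.77 on ligation arrays and -0.25, -0.14, -0.24 and -0.21 on control arrays. It was 4.33-fold higher (2.11 ± 0.083, adjusted p = 1.36e-06), and its lowest ligation array lay far above its highest control array. Ccnb2, cyclin B2, a partner of that kinase, had 1.25, 1.46, 1.52 and 1.31 on ligation arrays and -0.16, -0.07, -0.19 and -0.10 on control arrays, a log2 fold change of 1.52 ± 0.064 (adjusted p = 1.87e-06). Cdc20, the activator of the anaphase-promoting complex that ends metaphase, had 1.26, 1.41, 1.48 and 1.25 on ligation arrays and 0, -0.11, -0.07 and -0.02 on control arrays, a log2 fold change of 1.40 ± 0.058 (adjusted p = 1.78e-06). For all 3 genes ligation array 3 was the highest and the groups did not overlap.

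Other genes with a single probe or concordant probes followed. Aurkb, the kinase of the chromosomal passenger complex, was 4.93-fold higher (2.30 ± 0.16 on the log2 scale) and Birc5 (survivin), of the same complex, 2.17-fold higher. Mki67, which coats mitotic chromosomes and is the source of the Ki-67 proliferation stain, was 3.11-fold higher (1.64 ± 0.11). Top2a, the topoisomerase that untangles sister chromatids, was 3.08-fold higher by its brighter probe and 2.18-fold by its dimmer one. Ccnb1, cyclin B1, was 2.63-fold higher, Kif23, a kinesin of the midzone, 2.12-fold, Nusap1, a spindle-binding protein, 1.88-fold, and Plk1, the polo-like kinase, 1.81-fold. Adjusted p lay between 7.7e-06 for Top2a and 0.000351 for Kif23. Aurka, the kinase of the spindle poles, was 1.43-fold higher by its brighter probe and 2.02-fold by its dimmer one.

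Bub1b, the checkpoint kinase BubR1, was read by 2 dim probes. The one with the largest standard error of the class had 0.81, 1.58, 1.58 and 1.22 on ligation arrays and -0.58, 0, -0.58 and 0 on control arrays, a log2 fold change of 1.59 ± 0.23 (adjusted p = 0.000682). Ligation array 1 was the lowest there and the groups did not overlap, but the call was lost under scaling (1.29, adjusted p = 0.0632). The other probe rose by 0.29 ± 0.095 (adjusted p = 0.0309), with rounding leaving -0.05 to 0.64, and it did not pass without ligation array 2, nor without any 1 of the 4 control arrays (adjusted p 0.0653 to 0.0671). Its call was also lost under quantile normalization (0.18, adjusted p = 0.0655), under scaling (0.12, adjusted p = 0.0757) and with the sample channel alone (0.040, adjusted p = 0.837).

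Cdc25b, a phosphatase that activates mitotic cyclin-dependent kinases, went the other way. It had log2 ratios of -0.35, -0.52, -0.52 and -0.32 on ligation arrays and -0.12, 0.14, -0.07 and 0.07 on control arrays. All 4 ligation arrays lay below the control arrays, and Cdc25b fell by 0.44 on the log2 scale (1.35-fold lower, adjusted p = 0.00175). That call was lost under quantile normalization (-0.24, adjusted p = 0.322), under scaling (-0.17, adjusted p = 0.414) and with the sample channel alone (-0.29, adjusted p = 0.192).

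Of the 36 genes 15 had several probes, and the calls of 6 of them differed between probes: Ccne1, Ccna2, Cenpf, Kif20a, Kif2c and Ube2c. Ccna2, cyclin A2, which acts in S phase and at entry into mitosis, had 1.05, 1.26, 1.44 and 1.09 on ligation arrays and -0.29, -0.14, -0.32 and -0.35 on control arrays by probe 10000613866. By the brighter probe, 10000599057, it had -0.15, 0.09, 0 and 0.05 on ligation arrays and 0.22, 0.05, 0.12 and 0.26 on control arrays. Probe 10000613866 rose with groups well apart (log2 fold change 1.48 ± 0.094, 2.8-fold, adjusted p = 1.02e-05). The brighter probe had overlapping groups and did not pass (log2 fold change -0.17 ± 0.067, adjusted p = 0.0692), and its value made Ccna2 the 1 gene counted as not called. Without control array 2 the brighter probe passed as lower (-0.20, adjusted p = 0.0439), and likewise under quantile normalization (-0.41, adjusted p = 0.025) and scaling (-0.40, adjusted p = 0.0308).

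Cenpf, a kinetochore protein of G2 and mitosis, had 1.49, 1.5, 1.74 and 1.49 on ligation arrays and -0.32, 0, 0 and 0 on control arrays by its brightest probe, a log2 fold change of 1.63 ± 0.094 (adjusted p = 6.69e-06). Its other probes were read at intensities of 0.02 to 0.05, where nearly all ratios were listed as 1. Probe 10000613208 had 0, 0.58, 0 and 0 on ligation arrays and 0, 0, 0 and 0 on control arrays. Probe 10000593090 had 0, 0, 0 and 0 on ligation arrays and 0, 0.32, 0 and 0 on control arrays. Neither passed (adjusted p = 0.389 and 0.391), and 1 array of 8 departed from 0 in each.

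Kif2c, the kinesin MCAK, which takes apart microtubules at centromeres, had 1.14, 0.89, 1.12 and 1.22 on ligation arrays and 0, 0, 0 and 0 on control arrays by its brightest probe, a log2 fold change of 1.09 ± 0.066 (adjusted p = 8.36e-06). Probe 10000605094 had 1.00, 1.00, 1.00 and 0.42 on ligation arrays and 0, 0, 0 and 0 on control arrays. It passed too (adjusted p = 0.00109), but at intensities of 0.02 to 0.04, where rounding left -0.37 to 2.14. Probe 10000604381 had 0.42, 0, 0 and 0 on ligation arrays and 0.42, 0.26, 0.22 and 0 on control arrays. Its groups overlapped and it did not pass (adjusted p = 0.428).

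Kif20a, the kinesin MKLP2 of the midzone, had 1 probe that fell and 1 that did not pass. Its brighter probe had -0.13, -0.23, -0.16 and -0.06 on ligation arrays and 0, 0.13, 0.07 and 0 on control arrays. It fell (-0.19 ± 0.046 on the log2 scale, adjusted p = 0.0085) without overlap, a call that was lost under quantile normalization (-0.21, adjusted p = 0.11), under scaling (-0.18, adjusted p = 0.122) and with the sample channel alone (-0.15, adjusted p = 0.203). The other probe had 0.27, 0.08, 0.10 and 0.28 on ligation arrays and 0.15, 0, -0.04 and 0.19 on control arrays. Its groups overlapped and it did not pass (log2 fold change 0.11 ± 0.074, adjusted p = 0.26).

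Ube2c, the ubiquitin-conjugating enzyme of the anaphase-promoting complex, had 1.00, 1.00, 1.36 and 1.00 on ligation arrays and -0.32, -0.26, -0.22 and -0.32 on control arrays by its brighter probe, a log2 fold change of 1.37 ± 0.088 (adjusted p = 1.04e-05). Probe 10000594260 had -1, -1.14, -1.42 and -1.17 on ligation arrays and -1.32, -0.58, -0.81 and -0.81 on control arrays. Both groups read below the reference there and overlapped, and the log2 fold change of -0.30 ± 0.16 did not pass (adjusted p = 0.161). Quantile normalization turned it to 0.72 (adjusted p = 0.0107) and scaling to 1.67 (adjusted p = 0.0246), so the probe gave no settled direction.

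**Figure D3:**
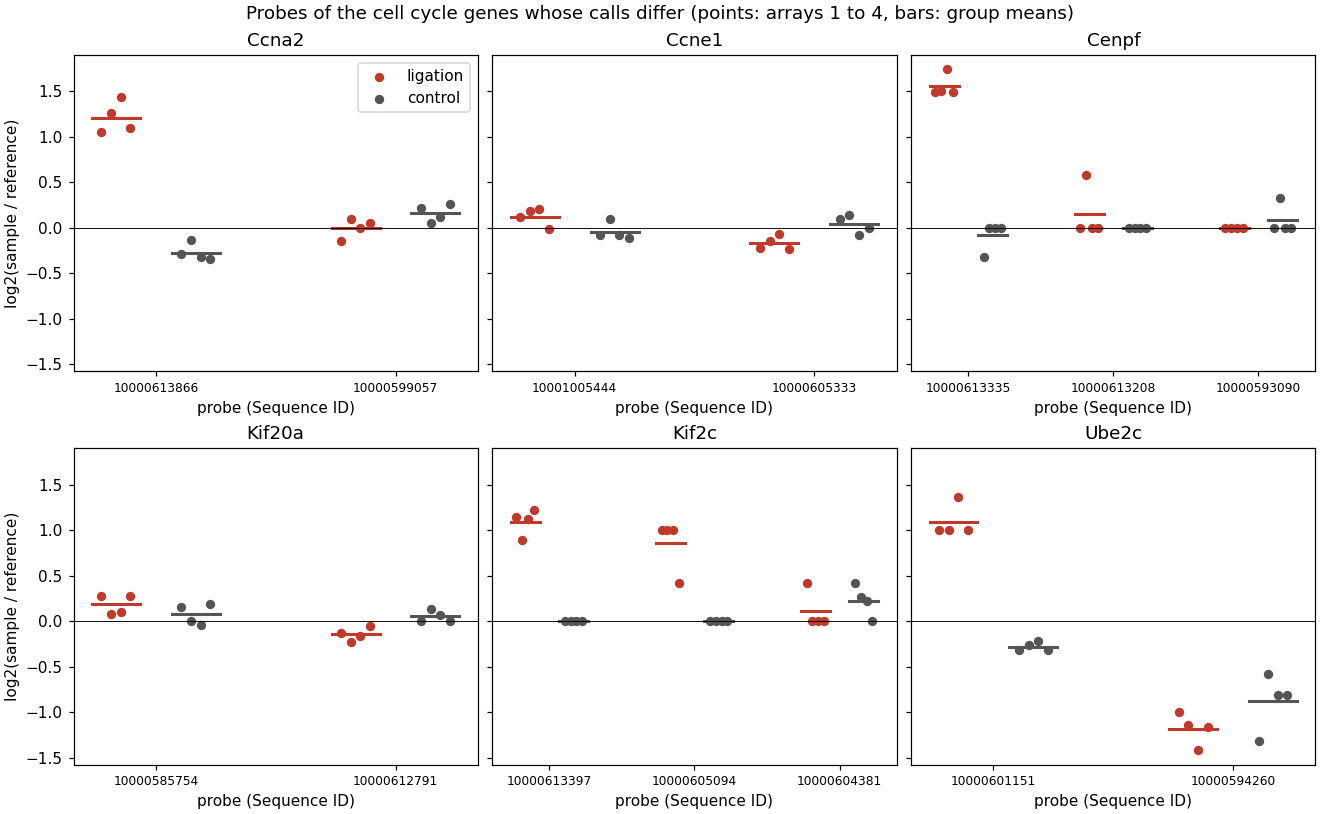
Log2 ratio of sample over reference on each array (points, ligation arrays left of control arrays within each probe) and group means (bars) for the 6 genes whose probes gave different calls. In Ccna2, Cenpf, Kif2c and Ube2c at least 1 probe sets all ligation points above all control points while another does not.

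The promoter matches can be set against all promoters of the table. A promoter was listed for 29 of the 36 genes, and 27457 promoters of the same length were searched on both strands. The CCAAT box was found in 15 of 18 promoters of mitosis genes (83.3%), in 4 of 7 of S phase genes (57.1%) and in 37.7% of all promoters. TTTGAA was found in 72.2% of the promoters of mitosis genes, 14.3% of those of S phase genes and 18.1% of all. Both together were found in 12 of 18 promoters of mitosis genes (66.7%), in 0 of 7 of S phase genes and in 7.25% of all. TTCGCGC or TTGGCGC was found in 5 of 7 promoters of S phase genes (71.4%), in 11.1% of those of mitosis genes and in 3.89% of all. The 4 promoters of G1 genes held neither TTTGAA nor these E2F forms, and 2 held a CCAAT box. Among the genes that fell, Cdc25b held a CCAAT box and no TTTGAA, Kif20a held 3 CCAAT boxes and no TTTGAA, and Ccne1 held no match. Cdk4, Tk1, Aurka and Kif2c, which rose by their brightest probe, held no match either, and Ccnb1 rose with CCAAT boxes and no TTTGAA. A lack of these matches was thus not particular to the genes that fell. These are matches of letters and say nothing of binding in the ganglia.

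**Figure D4:**
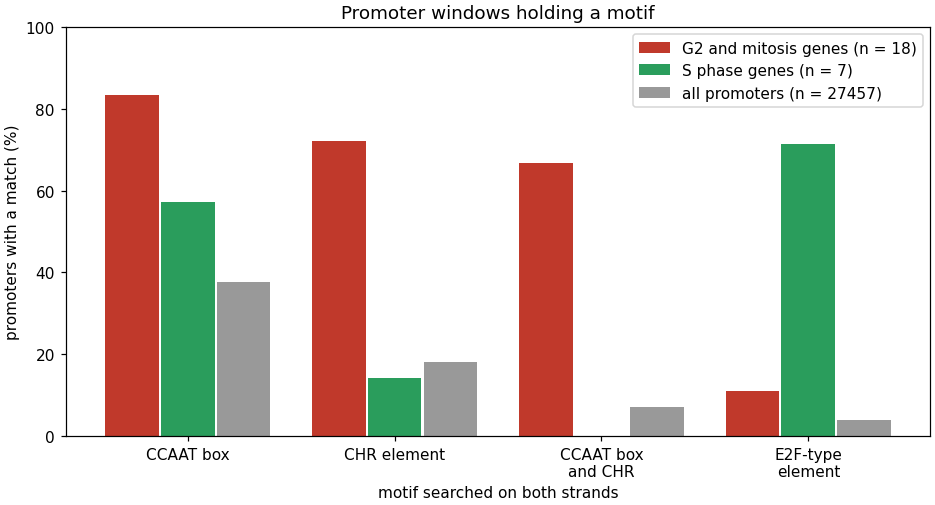
Share of promoters (percent) with a match to the CCAAT box, to TTTGAA (CHR), to both, and to TTCGCGC or TTGGCGC (E2F type) for 18 promoters of mitosis genes, 7 of S phase genes and all 27457. Bars of mitosis genes are tallest for the CCAAT box and CHR, and the bar of S phase genes is tallest for the E2F type.

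Genes of replication and mitosis outside the list were read in the same fit. Of 28 other replication genes 17 rose, 6 fell and 5 did not pass, with a median log2 fold change of 0.34. Over all genes 30.2% rose and 35.9% fell. Under quantile normalization 11 rose, while 3044 of all probes did, against 5897 without it. Under scaling 7 rose, while 2285 of all probes did. Among bright probes, where fewer genes were tested, 10 rose, while 3787 of 11182 probes did. Uhrf1, which brings the maintenance methylase to new DNA, was 3.94-fold higher (1.98 ± 0.072, adjusted p = 1.06e-06), Pola1, the catalytic subunit of polymerase alpha, 1.86-fold (adjusted p = 2.24e-06) and Cdt1, which loads the helicase at origins, 2.13-fold (adjusted p = 2.41e-06). Of 24 other mitosis genes 18 rose, 3 fell and 3 did not pass, with a median of 0.87. The range left by rounding excluded 0 for 16 of the 18 that rose and 2 of the 3 that fell. Among bright probes, where fewer genes were tested, 9 rose. Ttk, the checkpoint kinase MPS1, had 1.94, 2.15, 2.23 and 1.94 on ligation arrays and -0.20, -0.14, -0.29 and -0.21 on control arrays, 4.83-fold higher (adjusted p = 7.53e-07). Array 3 was again the highest. Cks2, a small subunit of cyclin-dependent kinases, was 3.36-fold higher (adjusted p = 1.6e-06). Incenp, the scaffold of the passenger complex to which Aurkb and Birc5 belong, was 1.92-fold lower by its brightest probe (adjusted p = 1.28e-06), with -0.93, -0.89, -0.86 and -0.92 on ligation arrays and -0.02, 0.13, 0.03 and 0.01 on control arrays. Its dimmer probes gave log2 fold changes of -0.09 and -0.09.

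Of 13 regulators of G1 6 rose, 2 fell and 5 did not pass. That 8 of 13 passed is near the 66.1% of all genes that did, so the count is no result about these genes. Their median log2 fold change was 0.08, with 3 higher under quantile normalization, 2 under scaling and 3 among bright probes. In these settings 3044, 2285 and 3787 of all probes rose, against 5897 in the main fit. Myc, a growth factor response gene that promotes entry into the cycle, was 1.92-fold higher (adjusted p = 5.26e-06), and E2f5, an E2F that acts with the RB relatives, 1.62-fold higher (adjusted p = 4.38e-05). Tfdp2, a dimer partner of the E2F proteins, was 1.38-fold lower by its brightest probe (adjusted p = 2.64e-05) and fell by its other 2 probes as well. The brightest probe lost its call under scaling (-0.21, adjusted p = 0.0621). Of the others, probe 10000598262 had overlapping groups, and rounding left -0.63 to 0.14 for it. E2f1, which drives many S phase genes, gave a log2 fold change of 0.05 ± 0.05 and did not pass (adjusted p = 0.402). It was read at intensities of 0.04 to 0.05 on ligation arrays and 0.035 to 0.045 on control arrays, where 7 of 8 ratios were listed as 1 and rounding left -0.63 to 0.74, so this value does not show a lack of change. It is named here after its values were seen.

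Genes that hold the cycle back rose alongside those that drive it. Of 14 inhibitors 12 rose, 0 fell and 2 did not pass, 8 rose at least 2-fold, and the median log2 fold change was 1.16, where 30.2% of all genes rose and 6.51% rose at least 2-fold. Under scaling 7 inhibitors rose, while 2285 of all probes did. Cdkn1a (p21), which blocks cyclin-dependent kinases, had 2.76, 2.56, 2.67 and 2.92 on ligation arrays and -0.58, -0.57, -0.50 and -0.30 on control arrays. It was 9.28-fold higher (3.21 ± 0.093, adjusted p = 4.57e-07), more than any gene of the cycle list, although its dimmer probe gave 1.34-fold with rounding leaving -0.10 to 0.96. Gadd45a, a gene induced by growth arrest and damaged DNA, had 2.56, 2.33, 2.34 and 2.67 on ligation arrays and -0.44, -0.28, -0.37 and -0.37 on control arrays. It was 7.17-fold higher (2.84 ± 0.085, adjusted p = 5.21e-07). In Cdkn1a and Gadd45a, as in Kif22, ligation arrays 1 and 4 were the higher ones.

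The other inhibitors had smaller fold changes. Gadd45g was 3.01-fold higher, Cdkn3, a phosphatase of cyclin-dependent kinases, 2.7-fold, Btg1 2.63-fold, Btg2 2.37-fold, Cdkn1c (p57) 2.25-fold and Cdkn2c (p18) 2.23-fold. Adjusted p of these 6 lay between 5.74e-07 for Cdkn2c and 0.000297 for Cdkn1c. The intensity of Btg1, 17.9 to 20.1 on ligation arrays, lay near the values at which bright spots piled up, and whether its fold is understated was not tested. Gadd45b was 1.71-fold higher, Ccng1 1.66-fold, Ccng2 1.37-fold and Cdkn1b (p27) 1.2-fold. Of these 4, Cdkn1b missed the threshold without each of 4 arrays in turn (ligation array 1, 2 or 4 or control array 3, adjusted p 0.0521 to 0.0674), under quantile normalization (0.071, adjusted p = 0.796) and under scaling (0.014, adjusted p = 0.973). Ccng2 missed it under quantile normalization (0.098, adjusted p = 0.468) and turned to -0.0026 under scaling. Ccng1 missed it under quantile normalization (0.42, adjusted p = 0.128) and scaling (0.26, adjusted p = 0.285), and Gadd45b under scaling (0.35, adjusted p = 0.126). Cdkn1c missed the threshold under quantile normalization (0.85) and scaling (0.66). Cdkn2a did not pass. Cdkn2b did not pass by its brightest probe (log2 fold change 0.05 ± 0.068), but was 3.47-fold higher by the other one (adjusted p = 4.77e-08), a gene named after its values were seen.

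**Figure D5:**
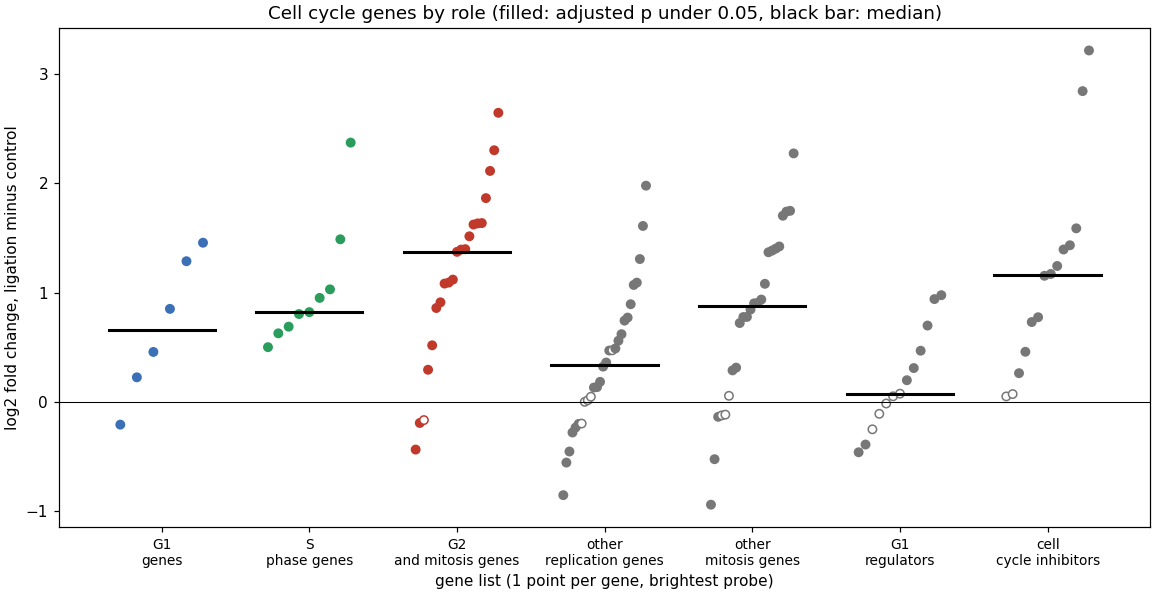
Log2 fold change of ligation minus control for each gene by its brightest probe (points, filled where the test was passed) in the 3 classes of cell cycle genes and 4 further lists, with the median of each list as a black bar. The medians run from 0.08 for the regulators of G1 to 1.37 for the genes of G2 and mitosis.

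Markers of cell types in the ganglion were read in the same fit, where 30.2% of all genes rose and 35.9% fell. Of 15 macrophage markers 13 rose and 2 did not pass, with a sample intensity, summed over markers with all values, of 78.5 to 86.0 on ligation arrays and 15.6 to 17.7 on control arrays. Of 12 lymphocyte markers 10 rose, at sums of 1.94 to 2.36 on ligation arrays and 1.09 to 1.5 on control arrays. The range left by rounding lay wholly above 0 for 7 of these 10. All 8 fibroblast markers rose, at sums of 50.5 to 64.4 on ligation arrays and 24.3 to 33.2 on control arrays. Of 8 endothelial markers 4 rose and 0 fell, fewer calls than the 66.1% over all genes, at sums of 9.04 to 11.97 on ligation arrays and 8.90 to 10.2 on control arrays. Of 8 satellite glia markers 4 rose and 1 fell, at sums of 28.4 to 31.4 on ligation arrays and 22.6 to 26.4 on control arrays. Of 8 Schwann cell markers 2 rose and 4 fell, at sums of 50.8 to 54.6 on ligation arrays and 46.8 to 59.5 on control arrays. Of 11 tested sensory neuron markers 10 fell and 1 did not pass, and their sums were 31.3 to 36.6 on ligation arrays and 91.0 to 93.0 on control arrays, so markers of the labelled tissue were present in both groups. All 3 erythrocyte markers did not pass, at sums of 18.9 to 20.4 on ligation arrays and 14.9 to 22.1 on control arrays. No marker was listed at 0 in either group. With each marker counted by its brightest probe, the dimmest was Kcnj10 of satellite glia, at 0.0092 to 0.01 on ligation arrays and 0.01 to 0.02 on control arrays. For satellite glia (5 of 8) and Schwann cells (6 of 8) the share of called markers was near that over all genes. The part of these cell types in the rise of the cell cycle genes was not tested.

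Some cell cycle genes read below the common reference in controls. For 10 of the 36 genes (27.8%) all 4 control arrays lay below it, against 8.64% of all genes, although the reference is labelled as a pool of control ganglia. These were 4 of the 9 S phase genes, 6 of the 21 genes of mitosis and 0 of the 6 G1 genes. The makeup of the pool was not tested.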

How the data were processed

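Gene expression was measured on 8 two-colour arrays, 4 of ligation and 4 of control ganglia. Total RNA (100 ng) went through 2 rounds of amplification, per the labels' protocols. The submitters' processing notes name Agilent Feature Extraction 8.5.1.1 as the program that read the arrays. How background was corrected and arrays were normalized is not stated in the labels or headers. The main deposited table holds, per the file headers, a sample and a reference intensity per spot. A further deposited table holds log10 ratios, and these matched the ratios of the intensities within 0.005.

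Log2 ratios were computed without further scaling, their median being 0 on every array, and spots of 1 probe were averaged. Tested probes had values on 2 or more arrays per group, which left 22379 of 22491 probes. The RefSeq gene table of GRCr8 named probes through an accession (2955), a symbol (10334) or a synonym (1898), 321 kept the file's name and 6983 had none. Cell cycle genes were matched by symbol. All their probes are shown, and a gene counts by its probe with the highest mean intensity. Groups were compared with lmFit and eBayes of limma 3.58.1 (R 4.3.3), two-sided, with Benjamini-Hochberg adjustment over all probes and a threshold of 0.05. The fit was tested on simulated data. Python 3.11.15 with pandas 2.3.3, numpy 2.4.6 and matplotlib 3.10.9 made tables and figures. The number of arrays limits the precision.

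The genes, lists and tests were chosen with earlier results of these data known. Values on every array are given for the 5 probes of each class with the smallest adjusted p, every probe that fell, every gene whose probes differ, and the probes with the largest rise and the largest standard error. Outside the 41 genes, the 3 called genes of each further list with the smallest adjusted p and every called inhibitor are named. 1 gene of the inhibitor list is not reported here. Promoters are those of the 4 mitosis and 2 S phase genes with the smallest adjusted p. The alternatives were quantile normalization, scaling to 1 spread, centring on bright probes, the deposited log10 values, the sample channel alone, a filter on dim probes, a trended and robust fit, a replicate block, averaging the probes of a gene, matching by accession or synonym as well, and leaving out each array.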

Additional observations from a re-analysis of the deposited data

Results flagged for a closer look

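Over 148 groups of 4 arrays, 16 had 1 array whose gap to the nearest of the others took up nearly the whole range of the group (Dixon's test). Chance flags about 1 in 20 groups. Several flags are of dim probes, whose ratios move in steps.

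Among ligation arrays, Mcm6 had a log2 ratio of 1.00 on array 4, where the other arrays had 0.58. Probe 10000605094 of Kif2c had 0.42 on array 4, where the others had 1.00, and probe 10000604381 of Kif2c had 0.42 on array 1, where the others had 0. Probe 10000613208 of Cenpf had 0.58 on array 2, where the others had 0. Array 3 was high for probe 10000613335 of Cenpf, at 1.74 against 1.49 to 1.5 on the others, and for probe 10000601151 of Ube2c, at 1.36 against 1.00.

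Among control arrays, array 2 was high for Ccnb1 at 0.13 (others -0.28 to -0.22), for probe 10001005444 of Ccne1 at 0.09 (others -0.11 to -0.08) and for probe 10000593090 of Cenpf at 0.32 (others 0). Array 1 was low for probe 10000613335 of Cenpf at -0.32 and for Pola1 at -0.10, the others being 0. Array 3 was low for probe 10001005055 of Top2a at -0.18 (others 0.04 to 0.07) and for Ccng1 at -0.15 (others 0.08 to 0.10). Array 4 was low for Mcm4 at -0.23 (others -0.11 to -0.10) and for Gadd45g at -0.26 (others 0), and high for Prc1 at -0.03 (others -0.06).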

How the results depend on the processing

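The number of called genes depends on how the spread of the arrays was treated. Of the 53 probes of cell cycle genes, 39 had the same call in every alternative run that tested them singly, and 14 changed in at least 1. The filter on dim probes left many of the 53 untested, and averaging gave no call per probe. When each of the 8 arrays was left out in turn, 48 kept their call. With only probes above the median intensity, which tests fewer probes, 19 cell cycle genes rose (5 of S phase, 10 of mitosis) by 21 probes, 0 G1 genes fell, and of the further lists 10 replication genes, 9 mitosis genes and 3 G1 regulators rose and 1 G1 regulator fell. Under quantile normalization 1 cell cycle gene, Ccna2, fell by 1 probe (1 of mitosis, 0 of G1). In that run 11 other replication genes rose and 1 fell, and 3 G1 regulators rose and 1 fell. Under scaling 1 cell cycle gene, again Ccna2, fell by 1 probe (1 of mitosis, 0 of G1). In that run 7 other replication genes rose and 1 fell, 1 other mitosis gene fell, 2 G1 regulators rose and 0 fell, and 7 inhibitors rose. With the sample channel alone 0 cell cycle genes fell by 0 probes (0 of mitosis, 0 of G1) and 1 G1 regulator fell. With probes averaged 1 cell cycle gene fell (1 of mitosis, 0 of G1), and with centring 0 G1 genes fell. Leaving out single arrays gave 0 to 1 G1 genes that fell. Over all probes 5897 rose in the main fit, 3787 among bright probes, 3044 under quantile normalization, 2285 under scaling and 4687 with the sample channel alone. The cause of these shifts was not tested.

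Single probes changed direction under 3 settings. With the sample channel alone probe 10000607441 of Mcm5 turned to -0.039. Under quantile normalization probe 10000594260 of Ube2c turned to 0.72, and under scaling it turned to 1.67 and Ccng2 to -0.0026. The deposited log10 values and the trended and robust fit changed no call of the 53 probes. The range left by rounding, chosen after seeing the data, lay above 0 for 29 of 32 genes that rose.

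Deviations of same-numbered ligation and control arrays correlated by 0.068 to 0.164, not all above 0.1, so the numbers were not taken to pair the samples, although each array correlated best with its own number. With the replicate block 12578 probes of all passed, against 13105 without it, and 1 cell cycle gene fell by 1 probe (1 of mitosis, 0 of G1). With the block probe 10000585754 of Kif20a (0.11, adjusted p = 0.0187) and probe 10001005444 of Ccne1 (0.17, adjusted p = 0.037) passed as higher. Not past the threshold with it were probe 10000612791 of Kif20a (adjusted p = 0.0521), probe 10000605333 of Ccne1 (adjusted p = 0.0599), probe 10000612648 of Bub1b (adjusted p = 0.051) and Cdkn1b (adjusted p = 0.0779).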
